A study of Mus musculus with 2 samples.

Results

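The genes described here are the histone genes of the mouse as the deposited count matrix names them. They are the rows whose symbol starts with Hist1h, Hist2h, Hist3h or Hist4h, or with H2af or H3f, or is H1f0 or H1fx. The rule takes 83 of 27998 rows. Of these, 67 are protein-coding genes of the histone clusters, called replication-linked here, 13 are replacement genes, and 3 are not protein-coding. Single-cell 3′ RNA was measured in multipotent progenitors, the early bone marrow cells from which all blood lineages come. They were sorted as lineage-negative cells positive for Sca-1, c-kit and CD34 and for a marker that the labels write as Flt3L. One sample came from C57BL/6 wild-type mice and one from C57BL/6 Spp1-/- mice, which lack osteopontin, a secreted matrix protein and cytokine. Both groups had received thioglycollate, an irritant that draws immune cells into the peritoneum, by injection into the abdominal cavity 20 hours before. There was no untreated group, and the sources used here give neither the age nor the number of the animals. With 1 library per genotype no test between genotypes was possible. A suffix of 1 or 2 on the cell barcodes separates the libraries. No label links the suffixes to the genotypes, so the names library 1 and library 2 are used.

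Histones are the proteins that DNA is wound around: H2A, H2B, H3 and H4 form the core of the nucleosome, and H1 binds the DNA that links one nucleosome to the next. Replication-linked genes supply most of this protein while DNA is copied. Their transcripts typically end in a short RNA hairpin, the histone stem-loop, in place of a poly(A) tail, although many of these genes can also make polyadenylated transcripts, for instance in differentiated cells. Among replacement genes, H3f3b and H2afz lie apart from the clusters, are spliced, and make polyadenylated transcripts throughout the cell cycle. Not all replacement genes share these traits: H2afx, H1f0 and H1fx are annotated without an intron. A 3′ library of the kind used here is primed on poly(A), so how far its counts stand for all histone transcripts was not tested. A unique molecular identifier (UMI) marks 1 captured transcript end, so levels are counts per 1000000 UMIs of the library or cell class (CPM) and are not scaled by transcript length.

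The stem-loop can be read in the annotated transcripts, and a few are printed because their form and what follows them differ between the genes whose values are given below. A 16-base hairpin with a stem of 6 base pairs was found in annotated transcripts of 44 of 65 replication-linked genes that GENCODE M21 holds (67.7%), against 6 of 21823 protein-coding genes outside the set (0.0275%). Among the 13 replacement genes only H2afx carried it, the histone that is phosphorylated around DNA breaks. The hairpin is in capitals with 5 bases on either side, 5′ to 3′, in the DNA letters of GENCODE M21.
Hist1h4d: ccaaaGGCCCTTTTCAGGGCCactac
Hist1h4i: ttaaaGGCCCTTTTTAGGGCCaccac
Hist1h2bj: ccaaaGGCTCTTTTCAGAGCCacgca
Hist1h2bb: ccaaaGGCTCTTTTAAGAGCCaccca
Hist3h2a: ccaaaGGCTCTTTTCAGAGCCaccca
Hist2h2ac: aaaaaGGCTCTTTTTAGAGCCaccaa
Hist1h1c: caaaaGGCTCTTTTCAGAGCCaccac
H2afx: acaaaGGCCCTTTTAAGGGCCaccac
The commonest form, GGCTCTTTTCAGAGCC, was found in 24 members, and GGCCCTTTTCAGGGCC in 7, all of them H4 genes. The annotated transcript went on for only 23 bases after the hairpin in Hist1h2bj and Hist1h2bb and for 57 in Hist2h2ac. It went on for 330 bases in Hist1h4i, 770 in Hist1h4d, 822 in H2afx, 840 in Hist1h1c and 1643 in Hist3h2a. No match was found in the annotated transcripts of Hist1h2bc (chr13:23684199-23692908, plus strand, GRCm38) or Hist1h1b (chr13:21779883-21780625, minus strand). The search covered annotated bases only, so a hairpin past an annotated transcript end would be missed.

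Promoters are shown for 3 genes of the large cluster on chromosome 13 that were higher in cells with mitosis transcripts (below): a linker histone, an H2A and an H4. The sequences are the 250 bases before the gene start from RefSeq, build GRCm38.p6, 5′ to 3′ in the direction of the gene. Capitals mark the motif CCAAT, the motif TATAAA and the octamer ATTTGCAT, searched on both strands, with overlapping matches joined. The Hist1h1b promoter is at chr13:21780626-21780875 (minus strand), that of Hist1h2ae at chr13:23571221-23571470 (minus strand), and that of Hist1h4d at chr13:23581318-23581567 (plus strand).
Hist1h1b: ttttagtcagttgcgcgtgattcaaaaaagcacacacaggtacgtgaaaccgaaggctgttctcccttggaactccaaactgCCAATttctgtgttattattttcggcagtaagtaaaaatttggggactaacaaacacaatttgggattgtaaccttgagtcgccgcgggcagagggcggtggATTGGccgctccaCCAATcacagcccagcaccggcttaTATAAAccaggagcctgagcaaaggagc
Hist1h2ae: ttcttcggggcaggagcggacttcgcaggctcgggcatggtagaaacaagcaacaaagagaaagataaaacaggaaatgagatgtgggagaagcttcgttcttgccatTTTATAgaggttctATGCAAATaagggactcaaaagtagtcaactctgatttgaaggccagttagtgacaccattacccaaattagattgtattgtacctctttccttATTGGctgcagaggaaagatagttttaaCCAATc
Hist1h4d: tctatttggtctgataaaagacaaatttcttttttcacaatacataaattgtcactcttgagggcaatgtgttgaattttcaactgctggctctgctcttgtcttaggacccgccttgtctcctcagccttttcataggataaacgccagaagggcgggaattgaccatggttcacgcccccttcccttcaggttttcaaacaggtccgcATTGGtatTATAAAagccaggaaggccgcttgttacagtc
RefSeq gave 62 promoters of replication-linked genes, 1 per gene that had any except Hist1h2be with 2. None was found for Hist1h2bc, Hist1h2ap, Hist1h3a, Hist1h3f, Hist2h2be and Hist2h4, so the shares do not cover them. CCAAT was found in 82.3% of them, against 33.8% of all 32851 promoters, in all 6 H1, all 17 H2A and all 17 H2B promoters but in 3 of 12 H4 promoters. TATAAA was found in 46.8%, against 12.4% of all promoters. The octamer ATTTGCAT was found in 7 of 17 H2A and 7 of 17 H2B promoters (41.2% each), in none of the 6 H1, 10 H3 and 12 H4 promoters, and in 1.60% of all promoters. Some H2A and H2B genes, such as Hist1h2ae and Hist1h2bg, lie head to head within 250 bases. A match between such genes can count for both, so the H2A and H2B shares are not independent. The 11 replacement promoters, which do not include one of H2afx, held CCAAT in 63.6%, TATAAA in 9.09% and ATTTGCAT in 9.09%. These are matches of letters and say nothing about binding.

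The matrix held 3312 barcodes of library 1 and 4572 of library 2, and 3253 and 4570 passed as cells, with 500 or more genes detected and a mitochondrial share of UMIs under 10%. Their UMIs summed to 10118499 and 18750468, with a median of 2830 and 3836 per cell. The 2 libraries shared 32 barcode sequences. Spp1, the deleted gene, had 33 UMIs in 30 cells of library 1 and 1 UMI in library 2, and this was not used to name a genotype. The sort markers were present in both libraries: Kit at 36.1 and 36.6 CPM, Cd34 at 413 and 457, Ly6a (Sca-1) at 311 and 294, and Flt3 at 122 and 141. Of the marker lists of other cells, the 6 dendritic genes summed to 794 and 234 CPM, the 5 T or NK cell genes to 299 and 320, the 6 B cell genes to 65.4 and 72.2, and the neutrophil, macrophage, mast cell and erythroblast lists to 35.6 CPM or less. Only 1 of the 5 T or NK cell genes had any UMI in library 1, and 3 had any in library 2.

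Replacement genes gave most of the histone signal in both libraries. Of the 171532 UMIs of all members, 149038 (86.9%) came from the 13 replacement genes and 22468 (13.1%) from the 67 replication-linked genes. All members together made up 0.563% of the UMIs of library 1 and 0.611% of those of library 2, with a median of 15 and 22 UMIs per cell. Of the replication-linked genes, 10 had no UMI, 24 had 1 to 49, 11 had at least 50 but under 200, and 22 had at least 200. Of the replacement genes, H2afb1, H2afb2 and H2afb3 had no UMI, H2afy2 (152) and H1fx (52) had few, and 8 had at least 200. The 3 rows that are not protein-coding, H3f3aos, Hist1h2al and the second Hist2h2bb row, held 26 UMIs.

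Among replacement genes, H3f3b, one of the 2 genes for the H3.3 protein, stood highest at 1402 CPM in library 1 and 1603 in library 2. H3f3a, the other gene for the same protein, stood at 621 and 615. H2afy, which encodes the large macroH2A variant, stood at 1375 and 1366, and H2afz, which encodes the H2A.Z variant found at promoters, at 1117 and 1254. H2afv, for a close relative of H2A.Z, was measured at 250 and 314, and H2afx at 53.2 and 91.8. H2afj, an H2A variant, stood at 41.8 and 47.0, and H1f0, a linker histone of cells that have stopped dividing, at 12.3 and 17.5. Each of H3f3b and H2afy was found in over 90% of cells (93.4% and 96.7%, and 91.3% and 95.2%), and H2afx in 13.4% and 26.2%.

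Linker histones led the replication-linked genes. Hist1h1b was measured at 114 CPM in library 1 and 161 in library 2 and was found in 22.4% and 34.4% of cells. Hist1h1e stood at 88.0 and 129. Every 50-base stretch at its annotated 3′ end also lies in a transcript annotated to Hist1h2be, so reads could have been split between them and its value is uncertain. Hist1h1a stood at 43.1 and 50.4, Hist1h1d at 30.3 and 28.2, and Hist1h1c at 23.7 and 28.6. The highest core genes were Hist1h4i (64.0 and 70.5), Hist1h2bc (49.8 and 44.0), Hist1h4d (36.9 and 25.9), Hist1h2ae (31.2 and 35.6), Hist1h2bj (36.5 and 20.2) and Hist3h2a (25.6 and 32.0). The 11 other replication-linked genes with at least 200 UMIs lay between 6.08 and 24.8 CPM. No H3 gene of the clusters reached 200 UMIs: the 12 together stood at 12.95 and 15.04 CPM.

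**Figure D1:**
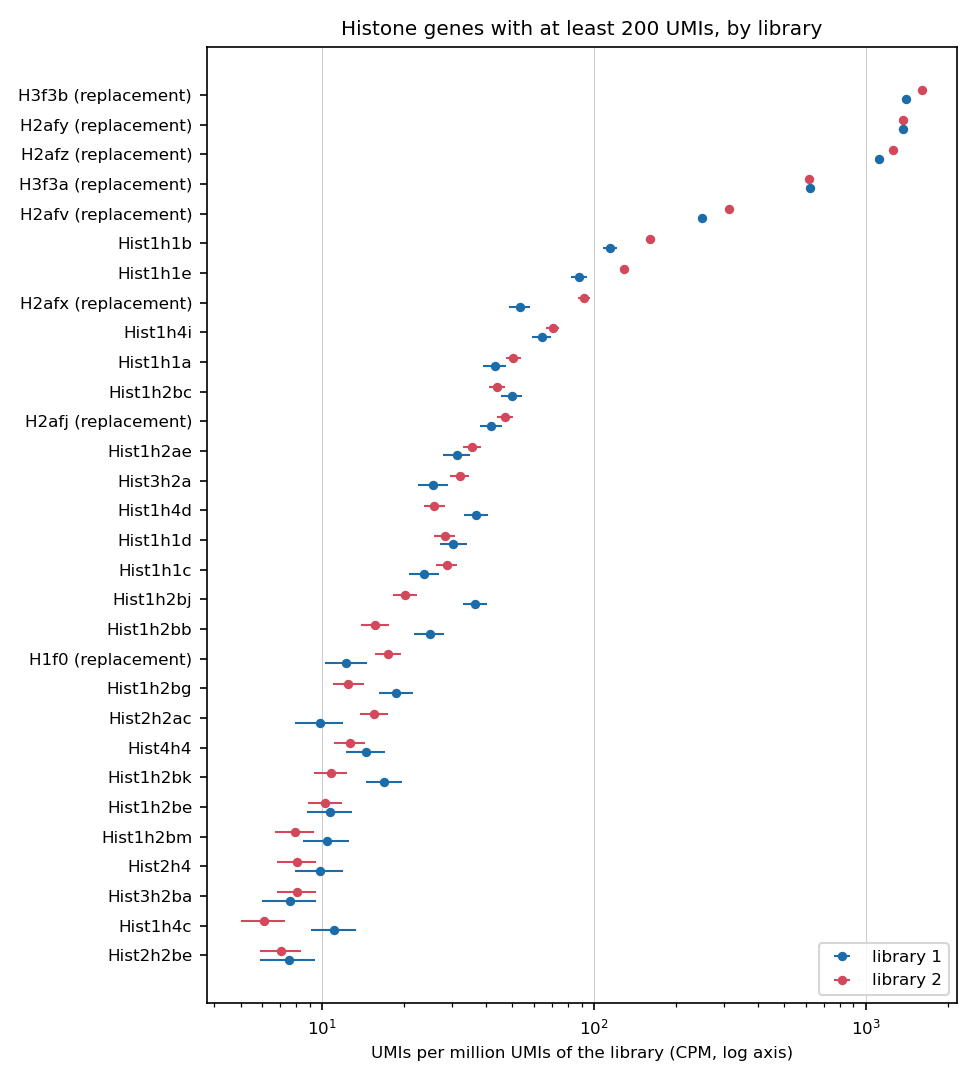
Levels of the 30 histone genes with at least 200 UMIs, in CPM on a log axis, with 1 point per library and exact 95% Poisson intervals. The 5 highest genes are all replacement genes, and Hist1h1b at 114 and 161 CPM is the highest replication-linked gene.

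The number of UMIs of a replication-linked gene went with its annotated 3′ end. The 22 genes whose transcripts end within 100 bases after the stem-loop had a median of 39.5 UMIs, 3 had none and 4 had at least 200. The 22 genes with a longer annotated stretch after it had a median of 239 UMIs, 1 had none and 13 had at least 200. Among the 21 with no hairpin found the median was 8, yet this group holds Hist1h1b (4170 UMIs), Hist1h1a and Hist1h2bc. Many of this group have short annotated transcripts, such as Hist1h4k (312 bases), Hist1h2bl (381) and Hist1h2ai (393). Whether these genes lack a hairpin or only its annotation was not tested. The share of the 3′ end that other genes also carry went with the number of UMIs too. The sources used here do not say how reads from shared stretches were assigned. The 34 genes with at least 50% of their last 50-base stretches found in another gene had a median of 14 UMIs, and the 17 with none had 250. Among genes under 50% shared, the 5 with a short end had a median of 134 UMIs and the 18 with a long end 275. Which of these sets the count was not tested.

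**Figure D2:**
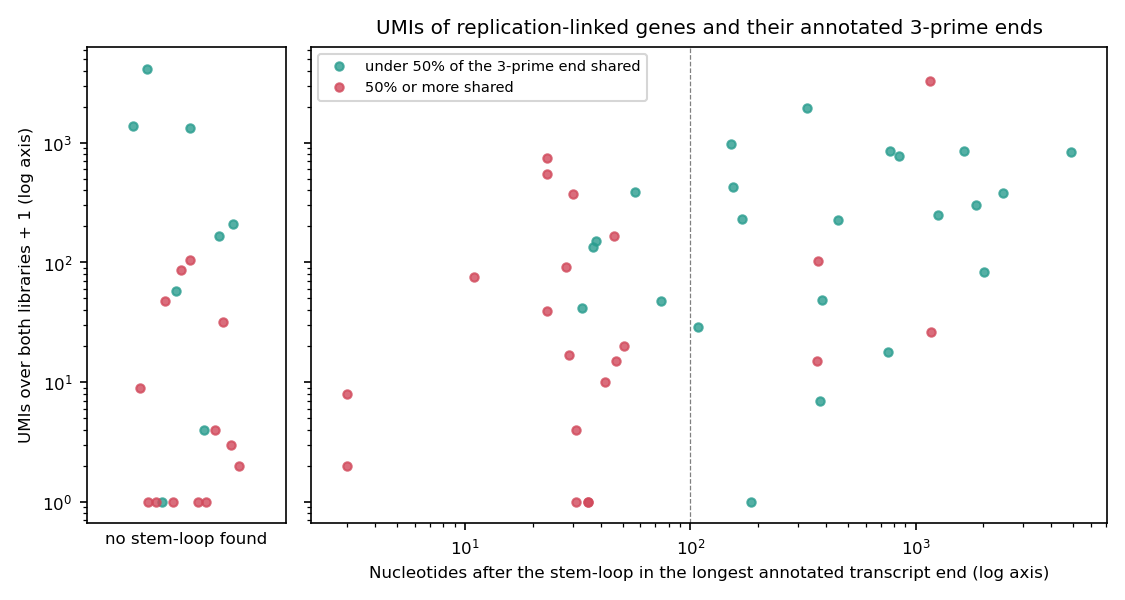
UMIs over both libraries plus 1 of each of 65 replication-linked genes (log axis) against the bases that follow the stem-loop in the annotated transcript (log axis), with genes without a hairpin in the narrow panel and colours for the share of the 3′ end found in other genes. Of the 22 genes right of the dashed line at 100 bases, 13 had at least 200 UMIs, against 4 of 22 left of it.

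The first comparison asked how the members lie with the cell cycle. Each of the 2444 and 4016 cells with at least 2000 UMIs was thinned to 2000 UMIs at random, and those UMIs were used to count 36 S-phase and 40 mitosis genes. A cell with at least 11 S-list UMIs was called S-high and one with at least 10 mitosis-list UMIs M-high (the 75th percentile over both libraries). These classes are ranges of a count and not cell types. They hold cycle-low cells (1552 in library 1 and 1819 in library 2), S only cells (490 and 947), S and M cells (50 and 195) and M only cells (352 and 1055). A gene counts as past the fold when it has at least 200 UMIs and differs at least 1.5-fold (0.58 on the log2 scale) in the same direction in both libraries. Intervals cover counting error only, and not which class a cell falls into: in 10 random thinnings 77.1% to 78.3% of cells kept their cycle class. The range over those 10 is given with the main values.

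The replication-linked genes were highest in cells with mitosis transcripts and differed little between S only and cycle-low cells. Their summed level without Hist1h2bc was 618 CPM in cycle-low cells of library 1 and 547 in library 2. In S only cells it was 685 and 666, a log2 ratio of 0.15 (95% interval 0.05 to 0.25) and 0.28 (0.21 to 0.35), and 0.15 to 0.38 and 0.20 to 0.29 over the 10 thinnings. In M only cells it was 1177 and 1017, a log2 ratio of 0.93 (0.85 to 1.01) and 0.89 (0.84 to 0.95), and 0.87 to 1.01 and 0.85 to 0.96 over the thinnings. Cells high in both lists stood highest, at 1486 and 1288 CPM (1.27 and 1.23). M only cells stood above S only cells by 0.78 and 0.61 on the log2 scale. M only cells were also the deepest, with a median of 4101 and 5305 UMIs against 3122 and 3448 in cycle-low cells. With each cell reduced to the same 2000 UMIs the M only ratio was 1.13 and 1.28.

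By gene, 15 of 22 replication-linked genes were past the fold upward in M only cells, where 2.03% of 7450 genes were, and none was past it downward, where 1.49% were. Over the 10 thinnings the count lay between 14 and 20, and 12 genes were past it in each. With 3000 UMIs per cell in place of 2000, which left 1462 and 3121 cells, 10 of all 30 members were past it in place of 17, and the summed ratio was 0.57 and 0.55. The share of all genes was not computed for the other thinnings or at 3000 UMIs. In the first thinning at 2000 UMIs the median log2 ratio of the 22 genes was 0.92 in library 1 and 0.85 in library 2. Over all genes it was 0.01 and 0.02. In S and M cells 14 of 22 were past it upward, against 2.60% of all genes, and Hist1h2bc alone downward, against 3.42%. Over the thinnings the upward count lay between 11 and 15, and only 4 genes were past it in each. In S only cells none was past it upward, against 0.617%, and Hist1h2bc alone downward, against 0.389%. The S only medians were 0.12 and 0.17, against 0.03 and 0.02 over all genes.

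Genes of several families were past the fold upward in M only cells. Hist3h2a, an H2A gene of a small cluster on chromosome 11 with a long annotated stretch after its hairpin, stood at 53.9 CPM in M only against 17.3 in cycle-low cells of library 1. In library 2 it stood at 53.5 against 21.4, log2 ratios of 1.64 (1.19 to 2.08) and 1.32 (1.04 to 1.61). In S only cells it was at 17.7 and 18.1, near the cycle-low level. Hist1h4d, an H4 gene, stood at 81.1 against 27.8 and at 41.8 against 15.97, log2 ratios of 1.55 and 1.39. Hist1h4i, the H4 gene with the most UMIs, stood at 115 against 55.9 and at 98.4 against 51.4 (1.04 and 0.94). Hist1h2bb and Hist1h2bk, H2B genes, differed by 1.32 and 0.91 and by 0.88 and 1.39. These were all past the fold in each of the 10 thinnings.

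The linker histones of the clusters were in sum highest in S and M cells, at 730 and 775 CPM, against 474 and 523 in M only cells. Hist1h1b stood at 98.9 and 110 CPM in cycle-low cells, 122 and 158 in S only, 362 and 356 in S and M, and 200 and 210 in M only cells. It was thus highest where both lists were high, and the S and M log2 ratio of 1.87 (1.49 to 2.24) and 1.70 (1.51 to 1.89) exceeded that of M only cells, 1.02 (0.81 to 1.22) and 0.94 (0.81 to 1.07). Hist1h1a showed the same order in library 2, with 36.8 CPM in cycle-low, 56.4 in S only, 102 in S and M and 58.8 in M only cells. In library 1 its S only value (39.6) lay below its cycle-low value (44.0), with an interval that holds 0 (-0.57 to 0.25). Hist1h1d, Hist1h1c and Hist1h1e were past the fold in M only cells (0.93 and 0.88, 0.74 and 0.84, and 0.72 and 0.89). In all, 4 of 5 H1 genes were past it in M only and 4 of 5 in S and M cells.

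The 7 replication-linked genes not past the fold in M only cells in the first thinning were Hist1h1a, Hist1h2bc, Hist1h2bg, Hist2h2ac, Hist4h4, Hist1h2be and Hist1h4c. Over the 10 thinnings Hist2h2ac was past it in 8, Hist1h2be in 5, Hist1h1a and Hist1h2bg in 3 and Hist1h4c in 2. Hist4h4, an H4 gene on chromosome 6, differed least upward, by 0.30 (-0.39 to 0.94) and 0.10 (-0.35 to 0.56). Only Hist1h2bc was lower than in cycle-low cells in both libraries. Of the genes with at least 50 but under 200 UMIs, Hist1h4h differed by 1.11 in both libraries.

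Replacement genes varied less. Their sum was 4716 and 4822 CPM in cycle-low, 5040 and 5175 in S only, 6119 and 6179 in S and M, and 5846 and 6026 in M only cells, so the M only log2 ratio was 0.31 and 0.32. Of 8 genes, 2 were past the fold in M only cells, 1 in S and M cells and none in S only cells, against the same 2.03%, 2.60% and 0.617% of all genes. Over the thinnings the count lay between 2 and 3 in M only cells and between 1 and 4 in S and M cells. It stayed at 0 in S only cells. H2afx, the replacement gene with a stem-loop, stood at 129 CPM against 41.3 and at 165 against 54.9 in M only cells, log2 ratios of 1.64 (1.36 to 1.93) and 1.59 (1.42 to 1.76), while S only cells stood at 40.8 and 54.9. H2afv differed by 0.73 in both libraries. Both were past the fold in M only cells in each thinning. H1f0 was past it upward in M only cells in 7 of the 10 thinnings, though not in the first, and in S and M cells in 4. Set against S only cells, M only cells had H1f0 past the fold upward in each thinning. In M only over cycle-low cells H2afz differed by 0.45 and 0.51 and H3f3b by 0.52 and 0.41. The other H3.3 gene, H3f3a, differed by 0.05 (-0.06 to 0.15) and -0.03 (-0.09 to 0.04), and H2afy by -0.10 and 0.01.

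**Figure D3:**
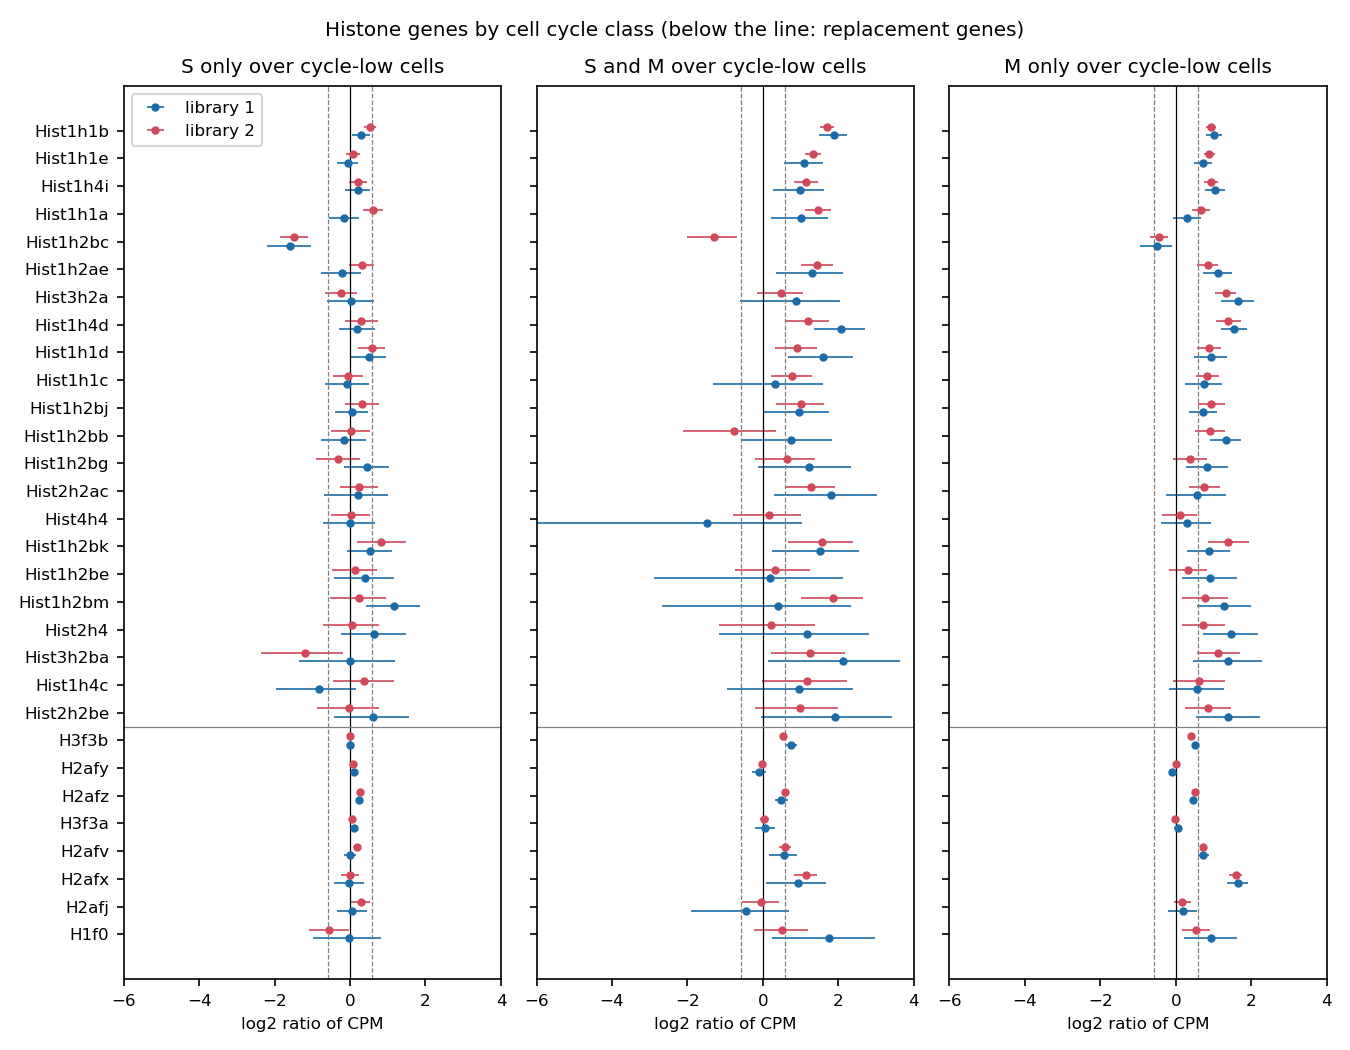
Log2 ratio of CPM of each histone gene with at least 200 UMIs in S only, S and M, and M only cells over cycle-low cells, with 1 point per library, exact conditional 95% intervals and dashed lines at 1.5-fold; Hist1h2bc has no library 1 point in the middle panel, where it had 0 UMIs. Most replication-linked genes lie near 0 in the left panel and right of 0 in the right panel, and Hist1h2bc lies left of 0 in all 3.

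Hist1h2bc, an H2B gene whose annotated transcripts held no hairpin match, ran against the rest. It stood at 53.0 CPM in cycle-low and 17.7 in S only cells of library 1, and at 55.6 and 19.9 in library 2. The log2 ratios were -1.59 (-2.19 to -1.03) and -1.48 (-1.85 to -1.13), and between -1.59 and -1.02 and between -1.49 and -1.07 over the 10 thinnings, so the library 1 value is the lowest of its range. It was past the fold downward in each thinning. Without the 50 and 29 cells that held dendritic markers it was -1.01 and -1.54. In S and M cells of library 1 it had 0 of 190382 UMIs. The floor of 3 counts in that class is 15.8 CPM, which lies 3.36-fold below the cycle-low level. The upper end of the exact interval of the log2 ratio was -1.44, for counting error only. In S and M cells of library 2 Hist1h2bc stood at 22.5 CPM (-1.31). In M only cells it stood at 37.2 and 40.6, above S only cells by 1.08 and 1.03 on the log2 scale. Its log2 ratio over cycle-low cells was -0.51 (-0.95 to -0.09) and -0.45 (-0.69 to -0.22). That last ratio was -0.06 and -0.21 with stricter cell filters (at least 1000 genes and under 5% mitochondrial UMIs).

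Along the S-list count, among cells that were not M-high, the difference was graded. Hist1h2bc stood at 156 CPM in library 1 and 154 in library 2 in cells with 0 to 2 S-list UMIs, at 74.4 and 67.4 with 3 to 5, at 30.7 and 41.6 with 6 to 10, and at 19.5 and 19.4 with 11 to 15. The other replication-linked genes ran the opposite way over the first steps, from 339 and 293 CPM to 566 and 476, 675 and 598, and 687 and 661. Cells called cycle-low therefore span a wide range of both measures. Along the mitosis list, among cells that were not S-high, the other replication-linked genes went from 346 and 241 CPM with 0 to 2 UMIs to 1060 and 995 with 6 to 10, and to 1254 and 1087 with 21 or more. Hist1h2bc stood at 65.2 and 62.3 at the low end, 32.4 and 35.7 with 6 to 10, and 70.7 and 54.4 with 21 or more. Intervals at the ends were wide. Replacement genes went from 3969 and 4003 CPM at the low end of the S list to 5019 and 5165 with 11 to 15.

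**Figure D4:**
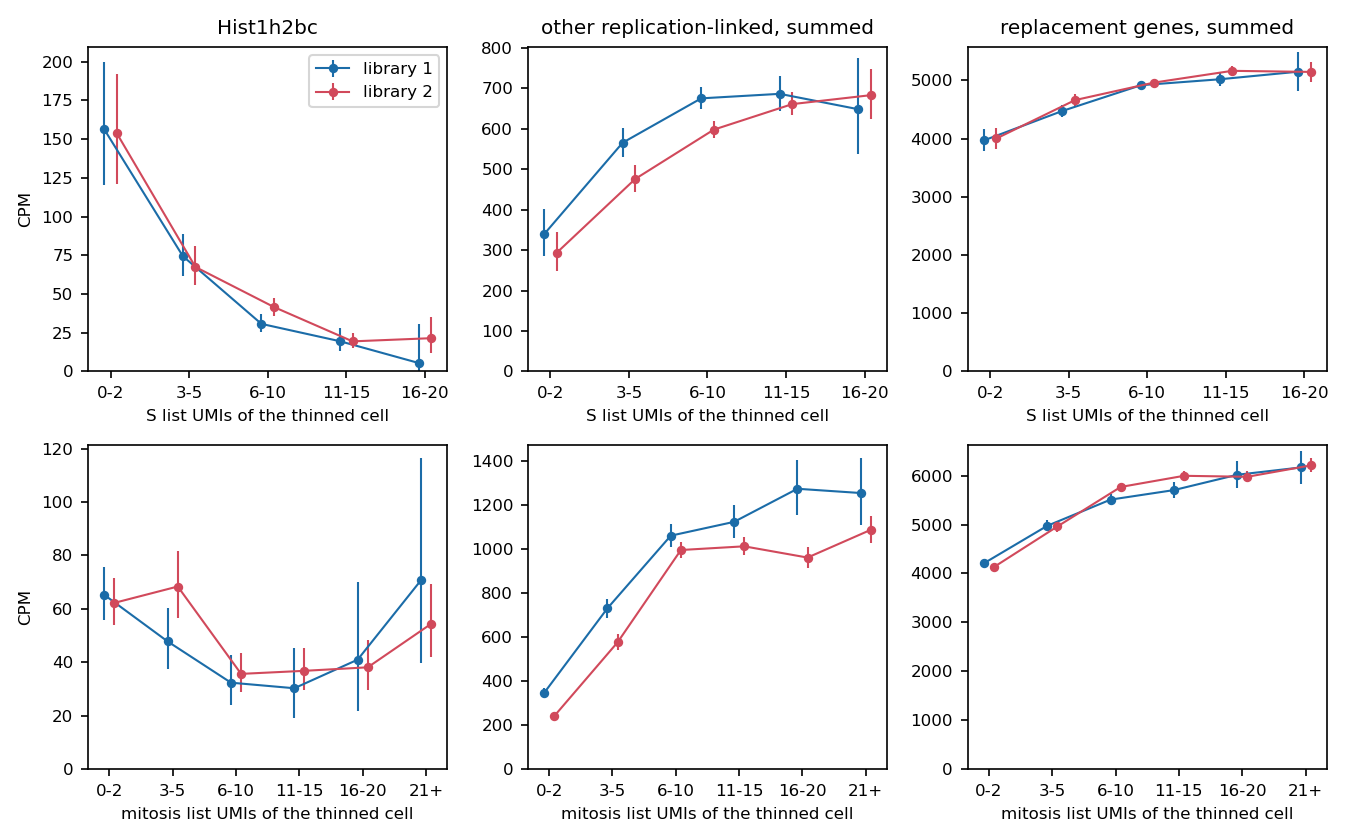
CPM of Hist1h2bc (left), the summed other replication-linked genes (middle) and the summed replacement genes (right) in bins of S-list UMIs among cells that are not M-high (top) and of mitosis-list UMIs among cells that are not S-high (bottom), per library, with exact 95% Poisson intervals and axes from 0. Hist1h2bc stands at 156 and 154 CPM at 0 to 2 S-list UMIs and at 19.5 and 19.4 at 11 to 15, while both other groups are higher there than at 0 to 2.

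Hist1h2bc was also unevenly spread over cells. It had no UMI in 90.2% of cells of library 1 and 88.5% of library 2, 1 UMI in 226 and 372 cells, 2 to 4 in 80 and 134, and 5 or more in 12 and 21 cells. Those 12 and 21 cells, 0.369% (exact binomial interval 0.191% to 0.643%) and 0.460% (0.285% to 0.702%) of cells, held 13.7% and 14.2% of its UMIs, and the highest cell had 8 and 10. In cells thinned to 2000 UMIs its variance over mean was 1.82 and 1.80, where genes of like mean had a median of 1.02 and 1.01, and 99.9% and 99.5% of 892 and 884 such genes lay lower. The next members were H3f3b (1.38 and 1.37) and Hist1h1b (1.34 and 1.36), which have higher means.

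Cells with a Hist1h2bc UMI held UMIs of some other histone genes less or more often than the product of their shares. Both Hist1h2bc and Hist1h1b were found in 23 thinned cells of library 1 and 40 of library 2, 0.751 and 0.711 of the product. For Hist1h1a the ratio was 0.682 (9 cells) and 0.539 (12 cells). For Hist1h1c it was 1.49 (11 cells) and 1.81 (25 cells), for Hist3h2a 1.401 (10) and 1.298 (19), and for Hist3h2ba 1.999 (4) and 2.45 (9). H2afz was near 1, at 0.995 and 0.984. These are descriptions over few cells. Hist1h1c, a linker histone, was the only other replication-linked gene with at least 200 UMIs whose S only ratio lay below 0 in both libraries. Its ratios were -0.07 (-0.67 to 0.50) and -0.04 (-0.45 to 0.35), and both intervals hold 0.

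Across 18 groups of at least 50 cells that share library, cycle class and lineage class, 5032 genes with at least 500 UMIs were ranked by their correlation with Hist1h2bc on the log2(CPM + 1) scale. The groups come from 2 libraries and share depth and the lists that made them, so the values are descriptions. Among the most alike were Mcts1 (Pearson r 0.78), Arih1 (0.71), Smndc1 (0.71), Arl11 (0.69), Gpsm3 (0.68), Wdr45b (0.68), Cox19 (0.67), mt-Cytb (0.66) and Leng8 (0.64). The most opposite were the DNA synthesis genes Tk1 (-0.80), Rad51ap1 (-0.79), Tyms (-0.74), Rrm1 (-0.73) and Gins4 (-0.73), of which Rad51ap1, Tyms and Rrm1 are in the S list. The summed other replication-linked genes were most like Hmgb2 (0.96), Ncapd2 (0.93), Top2a (0.92), Ccna2 (0.91), Cdk1 (0.90), Birc5 (0.90), Cks1b (0.90), Cdca3 (0.89), Hmmr (0.89) and their own member Hist1h4i (0.89), and several of these are in the mitosis list.

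Transcripts of genes whose proteins process histone transcripts and hand histones to DNA had lower median ratios than the members in S and M and in M only cells. In S only cells they did not. Of 43 such genes, 42 were found and 40 had at least 200 UMIs. In S only cells 2 of 40 were past the fold upward (0.617% of all genes) and 1 downward (0.389%). The higher ones were both chaperones of H3 and H4: Asf1b (1.02 and 0.99) and Asf1a (0.69 and 0.63). Cenpa, the H3 variant of the centromere, was past it downward (-1.21 and -1.72). In M only cells 3 were past it upward (2.03%) and 1 downward (1.49%). Cenpa was past it upward (2.66 and 2.78), with its chaperone Hjurp (0.97 and 0.99) and Anp32e, which removes H2A.Z (0.83 and 0.63), and Chaf1b, a subunit of the assembly factor that follows replication, downward (-0.69 and -0.78). In S and M cells 2 were past it upward (2.60%), Cenpa (1.08 and 1.26) and Hjurp (0.77 and 0.69), and none downward (3.42%). The list's medians were 0.12 and 0.12 in S only, 0.17 and 0.14 in S and M and 0.02 and 0.04 in M only cells. Those of the 30 members with at least 200 UMIs were 0.05 and 0.11, 0.95 and 0.84, and 0.86 and 0.76 in the same order. Slbp, which binds the stem-loop, and the 9 other measured genes of transcript processing were not past the fold in any of these classes.

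The second comparison set cells by lineage transcripts. A thinned cell was positive for a list at or above the 75th percentile of its UMIs (at least 7 stem, 2 lymphoid, 4 myeloid or 1 megakaryocyte-erythroid UMIs), and a class holds cells positive for 1 list alone, and is a range of counts rather than a cell type: 186 and 224 stem, 357 and 610 lymphoid, 262 and 364 myeloid, and 323 and 591 megakaryocyte-erythroid-class cells. Between thinnings 61.1% to 63.1% of cells kept their class, so these values are less firm than those by cycle. The classes differ in the cycle: 71.5% and 62.5% of stem-class cells were cycle-low, 57.1% and 45.1% of lymphoid, and 63.7% and 34.6% of myeloid-class cells. Myeloid-class cells were also the deepest, with a median of 4293 and 5535 UMIs against 3186 and 4081 in stem and 2982 and 3870 in lymphoid-class cells.

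Replication-linked genes were lower in sum in stem-class cells. Without Hist1h2bc they stood at 603 and 609 CPM in stem, 805 and 806 in lymphoid, and 764 and 842 in myeloid-class cells. Stem over lymphoid was -0.42 (-0.59 to -0.24) and -0.40 (-0.54 to -0.27), and stem over myeloid -0.34 (-0.52 to -0.17) and -0.47 (-0.60 to -0.33), and both were below 0 in both libraries in all 10 thinnings. Among cycle-low cells alone stem over lymphoid was 0.19 (-0.05 to 0.42) and 0.10 (-0.13 to 0.33), with no one direction over the thinnings, while stem over myeloid was -0.31 (-0.53 to -0.10) and -0.64 (-0.86 to -0.43). Lymphoid and myeloid-class cells differed by 0.08 and -0.06 over all cells. Among cycle-low cells lymphoid over myeloid was -0.50 (-0.70 to -0.30) and -0.74 (-0.93 to -0.55), below 0 in both libraries in all 10 thinnings.

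By gene, stem over lymphoid gave 0 of 22 replication-linked genes past the fold upward (3.05% of 7502 genes) and 3 downward (3.32%): Hist1h4d, Hist3h2a and Hist1h1c. Hist1h4d was at 19.9 CPM in stem and 67.8 in lymphoid-class cells of library 1 and at 8.996 and 48.3 in library 2, log2 ratios of -1.77 (-2.74 to -0.91) and -2.43 (-3.59 to -1.45). Hist3h2a was at 15.3 against 43.5 and at 26.0 against 40.7 (-1.51 and -0.65). Both were past the fold in all 10 thinnings, and Hist1h1c in only 1. Stem over myeloid gave 0 upward (2.69%) and 2 downward (2.93%), Hist1h4i (-1.03 and -0.81) and Hist1h4d (-0.79 and -0.80), which were past it in 5 and in 1 of the 10 thinnings.

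Lymphoid over myeloid gave 3 of 22 upward (3.11%) and 0 downward (3.05%). Hist1h4d was higher in lymphoid-class cells, 67.8 against 34.4 CPM and 48.3 against 15.7, log2 ratios of 0.98 (0.41 to 1.56) and 1.63 (1.06 to 2.23), in all 10 thinnings. Hist1h2bc (51.3 against 29.4 CPM and 57.2 against 37.0) and Hist1h4c (1.05 and 1.16) were the others. Hist1h4c was past the fold in only 2 of the 10 thinnings. The Hist1h2bc difference was past it in only 1 and ran from -0.37 to 0.90 in library 1, so it does not hold beyond the choice of UMIs. It stood at 61.3 and 37.0 CPM in stem-class cells and at 29.8 and 38.2 in megakaryocyte-erythroid-class cells, a class in which the dendritic list summed to 1344 CPM in library 1. In cycle-low cells alone 3 were past the fold upward (4.70%), Hist1h4d, Hist1h2bc and Hist1h4c, and 4 downward (6.30%): Hist1h1b, Hist1h1e, Hist1h2ae and Hist1h2be. Hist1h1b stood at 73.9 against 139 CPM and 73.1 against 154 there. Over the 10 thinnings the counts ran from 0 to 3 upward and from 2 to 8 downward, and no gene was past the fold in each. Hist1h1e was past it in 9 and Hist1h1b in 6, and the other 5 in 1 or 2. No replacement gene was past the fold between lineage classes over all cells in the first thinning, and in cycle-low cells H2afx and H1f0 were past it downward for lymphoid over myeloid, each in only 2 of the 10 thinnings. The supply list had 0 genes past it for stem over lymphoid, and 1 downward for stem over myeloid (Asf1a, -0.636 and -0.9997) and for lymphoid over myeloid (Eri1, which trims the histone stem-loop, -0.77 and -0.94).

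The third comparison set library 2 over library 1, the only form in which the 2 genotypes can be set side by side. The families went in different directions. H1 genes summed to 299 CPM in library 1 and 397 in library 2, a log2 ratio of 0.41 (0.35 to 0.47), and H2A genes to 76.6 and 94.8 (0.31, 0.19 to 0.43). H2B genes summed to 206 and 153 (-0.43, -0.51 to -0.34), and H4 genes to 154 and 134 (-0.20, -0.29 to -0.11). Replacement genes differed by 0.12 (0.11 to 0.14). The sum of all replication-linked genes was 749 and 794 CPM (0.08, 0.04 to 0.12). With the same number of cells from both libraries in each of 20 bins of UMIs per cell, that sum differed by -0.18, the H1 sum by 0.09 and the H2B sum by -0.59.

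Of 33 replication-linked genes with at least 50 UMIs, 1 was at least 1.5-fold higher in library 2, where 4.79% of 10099 genes were, and 7 at least 1.5-fold lower, where 2.46% were. The higher gene was the H2A gene Hist2h2ac (9.78 against 15.5 CPM, 0.67). The lower ones were the H2B genes Hist1h2bj (36.5 against 20.2 CPM, -0.85, -1.06 to -0.64), Hist1h2bb (24.8 against 15.6, -0.67), Hist1h2bk (16.9 against 10.8, -0.65) and the protein-coding Hist2h2bb (8.30 against 4.37, -0.92), and the H4 genes Hist1h4c (11.1 against 6.08, -0.86), Hist1h4h (-0.68) and Hist1h4b (-0.92). Hist1h2bg at -0.58 lay just inside the fold. All 13 H2B genes with at least 50 UMIs lay below the median of all genes, 0.11. Of the 10 replacement genes with at least 50 UMIs, H2afx was past the fold upward (53.2 against 91.8 CPM, 0.79, 0.65 to 0.93) and none downward. Over all members the counts were thus 2 higher and 7 lower. They were 1 and 12 with cells matched on depth, 1 and 10 with TMM factors, 4 and 5 without the 5% deepest cells, and 6 and 8 when each cell was given equal weight. The share of all genes past the fold was not computed for these settings. Of the supply list Cenpa alone was past it upward (105 against 180 CPM, 0.78) and none downward, with a median of 0.19.

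Library 2 held more cells with mitosis transcripts, 26.3% against 14.4% M only and 4.86% against 2.05% S and M, and fewer cycle-low cells (45.3% against 63.5%). H2B genes without Hist1h2bc, at -0.51 over all cells, were lower in library 2 within each class, with log2 ratios of -0.72 (-0.88 to -0.56) in cycle-low, -0.80 (-1.03 to -0.56) in S only, -0.97 (-1.43 to -0.50) in S and M, and -0.81 (-0.98 to -0.64) in M only cells. The H4 ratios were -0.41, -0.35, -0.58 and -0.58 in the same order. The H1 difference was 0.07 (-0.03 to 0.16), 0.31 (0.16 to 0.46), 0.09 (-0.18 to 0.36) and 0.14 (0.03 to 0.26), so it was smaller in each class than over all cells. Replacement genes differed by 0.01 to 0.04, and Hist1h2bc by 0.07, 0.17 and 0.12 in the 3 classes where both libraries had UMIs.

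**Figure D5:**
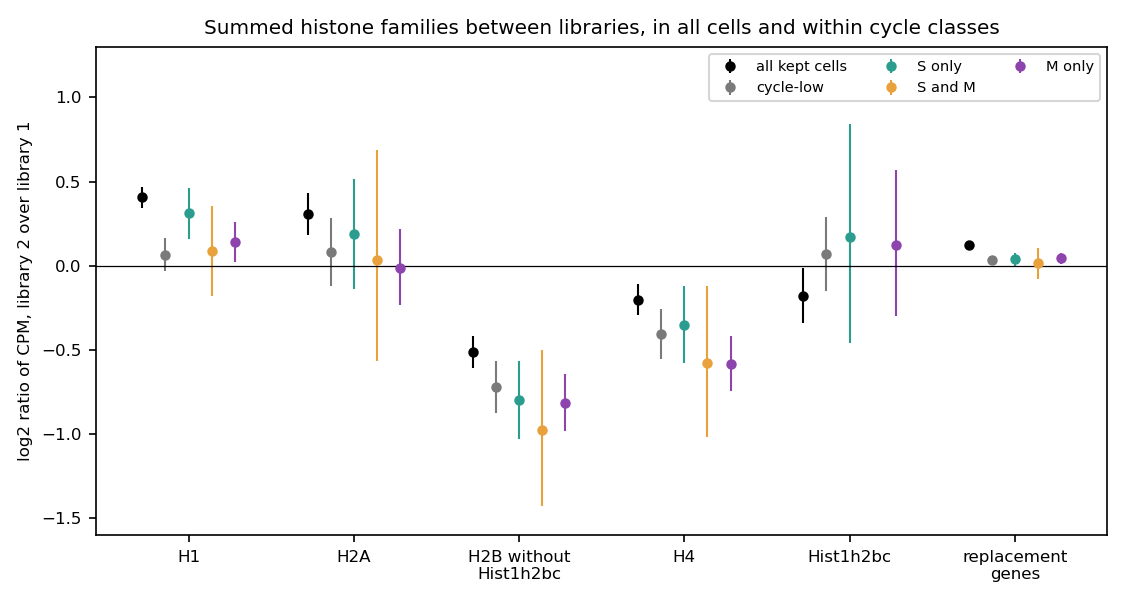
Log2 ratio of summed CPM, library 2 over library 1, for histone families over all kept cells and within the 4 cycle classes, with exact conditional 95% intervals. The point of H2B without Hist1h2bc is below 0 in each class, from -0.72 to -0.97, while the H1 points within classes lie below that of all cells, 0.41.

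Of the 7 genes at least 1.5-fold lower in library 2, Hist1h2bj, Hist1h2bb, Hist1h2bk, Hist1h4h and Hist1h4b have an annotated end within 100 bases after the hairpin and at least 50% of it shared, while Hist1h4c has a long unshared end and Hist2h2bb no hairpin match. Of the 9 genes with at least 50 UMIs that end within 100 bases after the hairpin, 7 lay below 0, with a median of -0.65 (from -0.92 to 0.67). Of the 15 with a longer end, 7 lay below 0, with a median of 0.08 (-0.86 to 0.58). Of the 8 with no hairpin found, 6 lay below 0, with a median of -0.18. For the 10 genes with at least 50% of the 3′ end shared the median was -0.57. The 3 short-ended genes under that share had a median of -0.0016. With 1 library per genotype, a difference between genotypes and a difference between library preparations cannot be told apart.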

How the data were processed

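Single-cell 3′ RNA of 2 samples of sorted progenitors was analysed, 1 per genotype. The authors deposited 1 matrix of UMI counts for both libraries. Cell Ranger 1.1 and the build mm10 are named in the submitters' processing notes. The sources used here do not say how reads were assigned to genes. The members and lists were chosen with earlier results of these data known.

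Of 7884 barcodes, 61 were removed (under 500 genes, or 10% or more mitochondrial UMIs). No doublet caller was run and no cell was removed as a doublet. An alternative leaves out the 5% deepest cells of each library. UMIs were summed per library or class and scaled to 1000000. Levels carry exact Poisson, ratios exact conditional Poisson and shares exact Clopper-Pearson 95% intervals, which cover counting error only. A floor is 3 counts. With 1 sample per group no p-value was computed, and a gene counts by fold: at least 1.5-fold and 50 UMIs between libraries, or at least 1.5-fold in both libraries and 200 UMIs between classes. Genes of the lists that set a class were left out of the share over all genes.

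Cells were classed from 2000 UMIs drawn at random. The 9 further draws and the removal of cells with at least 10 dendritic UMIs were chosen after seeing the data. Members with at least 200 UMIs were to be named with values, and others by count with at most 5 named. Of the genes most like Hist1h2bc or the summed others the first 10 were to be named, and 1 of them is not reported here. Of the supply list the 2 to 4 with the largest ratio were to be named. Of the replication-linked genes with at least 200 UMIs, 11 have their levels given as a range.

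Transcripts came from GENCODE M21, where 81 of 83 members were found, and promoters from RefSeq (GRCm38.p6). The share of the 3′ end is that of 50-base stretches in the last 300 bases also found in a transcript of another gene. The ratio, interval, thinning and class steps were tested on simulated data. Python 3.11.15, numpy 2.4.6, scipy 1.17.1, pandas 2.3.3, matplotlib 3.10.9, R 4.3.3 and, for the TMM factors alone, edgeR 4.0.16 were used.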

Additional observations from a re-analysis of the deposited data

Results flagged for a closer look

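The barcodes that were removed also held UMIs of histone genes. The 59 removed from library 1 held 188 member UMIs among 48394 UMIs in all, and 1 of the 188 was from Hist1h2bc. The 2 removed from library 2 held 4 among 2201. These barcodes enter no comparison, and the values are listed because they lie outside the kept cells and above 3 counts.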

How the results depend on the processing

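No paired analysis was possible because each genotype has 1 sample. For 30 results 298 alternative values were computed: 175 kept their direction and stayed within the interval or 1.5 times the count, 114 moved further and 9 changed sign. Settings that change the cells or depth also draw the UMIs anew, and the cause of a change was not tested. The share of all genes past the fold was computed for the main setting only, so the counts of members below have no such share beside them. Depth limits genes under 200 UMIs and the class of S and M cells in library 1.

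Between libraries, the replication-linked sum (0.08) was -0.00069 with strict cell filters (at least 1000 genes, under 5% mitochondrial UMIs), -0.0076 with TMM factors, 0.0011 without ribosomal protein genes in the total and -0.18 with cells matched on depth. In the same order the replacement sum (0.12) was 0.0903, 0.0318, 0.0404 and 0.0363, and the H1 sum (0.41) was 0.30, 0.32, 0.32 and 0.093. The H2B sum (-0.43) was -0.52 with TMM factors, -0.51 without ribosomal genes and -0.59 with matched cells. Hist1h2bc (-0.18) was 0.0049 with strict filters and 0.029 with matched cells. The 7 lower members became 11 with strict filters, 12 with matched cells, 4 at 200 UMIs and 14 with no filter on genes. The 2 higher members became 6 with the mean over cells, 1 with TMM factors, without ribosomal genes and with matched cells, 4 without the deepest cells and 7 with no filter.

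By cycle, the other replication-linked genes in S only cells of library 1 (0.15) were at 0.345 when thinned to 1000 UMIs, 0.038 at the 90th percentile, 0.345 without the deepest cells, 0.25 without dendritic-marker cells and 0.38 in the highest of 10 draws. Those of library 2 (0.28) were at 0.20 at 1000 UMIs, 0.034 at 3000, 0.39 at the 67th percentile, 0.065 at the 90th, 0.44 with levels from thinned UMIs, 0.44 without the deepest cells and 0.20 in the lowest draw. In M only cells of library 1 (0.93) they were at 1.20 at 1000 UMIs, 0.57 at 3000, 1.05 at the 67th percentile, 0.85 at the 90th, 1.13 from thinned UMIs, 0.81 with strict filters and 1.19 without the deepest cells. For library 2 (0.89) these were 1.18, 0.55, 1.17, 0.53 and 1.28, with 1.248 without the deepest cells and 0.96 in the highest draw. Hist1h2bc in S only cells of library 1 (-1.59) was at -3.05 at the 90th percentile, -1.01 without dendritic-marker cells and -1.02 in the highest draw, and in library 2 (-1.48) at -1.09 with strict filters and -1.07 in the highest draw. In M only cells of library 1 (-0.51) it was at 0.21 at the 90th percentile and -0.055 with strict filters, and in library 2 (-0.45) at -0.70 at 1000 UMIs, -0.0297 at the 90th percentile and -0.205 with strict filters. The 1 member lower in S only cells became 3 at 1000 UMIs and 2 from thinned UMIs. The 0 higher became 1 at 1000 UMIs, from thinned UMIs, with strict filters and without the deepest cells, and 2 without dendritic-marker cells and in the highest draw. The 17 higher in M only cells became 10 at 3000 UMIs.

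By lineage, stem over myeloid in library 1 (-0.34) was -0.66 from thinned UMIs and -0.72 without the deepest cells. In library 2 (-0.47) it was -0.21 at 1000 UMIs, -0.12 at 3000, -0.30 at the 67th percentile, -0.62 from thinned UMIs, -0.19 with strict filters, -0.61 without the deepest cells, -0.64 in cycle-low cells, -0.15 without dendritic-marker cells and -0.23 in the highest draw. Stem over lymphoid in library 1 (-0.42) was -0.63 at 3000 UMIs, -0.68 from thinned UMIs, -0.59 with strict filters, -0.68 without the deepest cells, 0.19 in cycle-low cells and -0.63 in the lowest draw. In library 2 (-0.40) it was -0.27 at 1000 UMIs, -0.60 at the 90th percentile, -0.26 with strict filters, 0.099 in cycle-low cells and -0.22 without dendritic-marker cells. Hist1h2bc in lymphoid over myeloid cells of library 1 (0.80) was -0.37 in the lowest draw.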
